A study of Rattus norvegicus with 18 samples.

Results

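DNA methylation was measured by reduced representation bisulfite sequencing (RRBS), which reads the CpG-rich ends of MspI fragments, around 3 adenylyl cyclase genes, Adcy5, Adcy7 and Adcy10, in the striatum of 9 rats. The 3 CpGs at chr11:68791570 (Adcy5), chr19:19716699 (Adcy7) and chr13:83756955 (Adcy10) of the rat genome build rn6 were taken as anchors, and every covered CpG within 50 kb of one of them was included. This gave 343 CpGs of the 1451601 covered in the series, with 106 at Adcy5, 199 at Adcy7 and 38 at Adcy10. The study's annotation places the chosen CpGs of Adcy5 and Adcy7 in an intron and that of Adcy10 in an exon. The 3 anchors were chosen by their difference in percent methylation between treatments in these same striata, so their values between treatments are a description and carry no test. A distance is given in bp from the chosen CpG, negative towards lower coordinates of rn6.

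Adenylyl cyclases turn ATP into the second messenger cAMP, which activates protein kinase A and, through it, the transcription factor Creb1. Adcy5 is the main cyclase of the striatal projection neurons, where the dopamine receptor Drd1 stimulates it through a G protein and Drd2 inhibits it. Adcy7 is another membrane-bound cyclase, while Adcy10 is the soluble cyclase that responds to bicarbonate and calcium. Methylation of CpGs is usually low at active promoters and high over gene bodies.

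All rats were juvenile male Wistar rats with a unilateral 6-OHDA injection into the left medial forebrain bundle at postnatal day (PND) 21, a toxin lesion of the dopaminergic input of one striatum, so no group was free of the lesion. From PND 35 to PND 49, for 2 weeks, rats received saline (UNT), L-DOPA with benserazide (L-DOPA), or L-DOPA with benserazide and the anti-glutamatergic drug Riluzole (L-DOPA + R), with a last dose at PND 53, when the striata were collected. Riluzole was dissolved in Tween, a vehicle that the study does not list for the other groups. Each treatment had 3 rats, and the control and the lesioned striatum of each were sequenced, which gave 6 striata per treatment and 18 in all. The control and lesioned striatum with the same replicate number were taken as those of 1 rat, which the labels do not state, and the means and SDs over rats rest on it. The striatum was taken as a whole, so that a change of methylation within a cell type and a change in the mix of cell types cannot be told apart. Expression data of these striata were not used here, and the tissue was not checked against marker genes.

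Depth limited what a single striatum could show. The sum of the reads over all cytosines of a striatum ran from 30304520 to 49146750 in UNT, but only from 18480983 to 30778121 with L-DOPA and from 19402864 to 25865285 with L-DOPA + R. A cytosine was kept in a striatum with at least 10 reads, and the strands of a CpG were then added up. Of the 343 CpGs, 70 were kept in all 18 striata, and 56 were read on both strands in at least 1 striatum. The reads behind a kept value lay between 10 and 179. For the chosen CpG, the Wilson 95% interval of a single striatum was between 27.2 and 52.7 points wide at Adcy5, between 27.1 and 42.9 at Adcy7 and between 17.4 and 38.6 at Adcy10. Intervals and limits cover the counting error only. Neighbours of the chosen CpGs were compared between groups with a logistic model per CpG on methylated and unmethylated reads, with a chi-square test and Benjamini-Hochberg adjustment (q) over all CpGs tested in the series. A CpG needed 4 of the 6 striata of each group, and at a q under 0.01 it was called a DMS, a differentially methylated site.

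The promoter of Adcy5 is shown because the methylation calls bear on it directly. Its sequence is taken from RefSeq (build GRCr8, chr11:79123344-79123593, minus strand), 250 bases before the start of the gene, 5′ to 3′, with the CpGs that were covered in capitals.
Adcy5 promoter: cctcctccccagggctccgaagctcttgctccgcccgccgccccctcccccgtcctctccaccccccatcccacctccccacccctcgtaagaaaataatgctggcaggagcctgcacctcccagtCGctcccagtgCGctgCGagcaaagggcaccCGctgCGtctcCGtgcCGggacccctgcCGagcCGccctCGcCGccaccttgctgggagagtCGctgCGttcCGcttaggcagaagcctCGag
Of its 21 CpGs, 15 were covered, and it holds 1 copy of CCGG, the sequence cut by the enzyme MspI of RRBS. This motif, which reads the same on both strands, is present in 46.2% of 33469 promoter sequences of the same length, which hold a median of 5 CpGs. Since no sequence of rn6 was used, the promoter was placed on rn6 by the spacing of its CpGs. With 50 more bases past the start of the gene, all 23 covered positions of the matching window of rn6 fell on CpGs of the sequence. A full match was required for placing, and the next best window matched at 6 of 6 covered positions. The window chosen lay 50701 to 51000 bp from the chosen CpG, just past the 50 kb, and the start of the gene 50750 bp from it.

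The Adcy5 promoter was nearly unmethylated in all treatments. Over the 3 CpGs kept in all 18 striata, the mean methylation was 0.640% ± 0.438 (SD, n = 3 rats) in UNT, 0% ± 0 with L-DOPA and 0.225% ± 0.201 with L-DOPA + R. No striatum was above 2.22%. Of the 11 promoter CpGs tested between L-DOPA + R and UNT, 0 were DMS by the logistic model and 0 had an unadjusted p under 0.05, where 0.445% and 9.52% of all CpGs tested in the series did. Between L-DOPA and UNT, 0 of 6 were DMS and 1 had an unadjusted p under 0.05 (0.351% and 7.37% of all). For L-DOPA + R against L-DOPA both counts were 0 of 6 (0.0477% and 7.09% of all). The promoters of Adcy7 and Adcy10 could not be placed on rn6 by their CpGs.

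The chosen CpG of Adcy5 was at intermediate methylation in UNT and L-DOPA rats and lower in L-DOPA + R. In the UNT control striata, methylation was 62.5%, 57.1% and 52.1%, and in the lesioned striata 57.1%, 52.4% and 64.3%. In L-DOPA, 5 striata reached 10 reads, with 76.9% and 47.1% on the control side and 50%, 75.0% and 25% on the lesioned side. In L-DOPA + R, 4 striata reached 10 reads, with 11.1%, 20% and 38.5% on the control side and 16.7% on the lesioned side. The kept striata of L-DOPA + R lay below all those of UNT, while the L-DOPA striata spread on both sides of UNT and overlapped with L-DOPA + R. Over rats, the means were 57.6% ± 2.58 (SD, n = 3) in UNT, 58.2% ± 20 with L-DOPA and 19.6% ± 8.24 with L-DOPA + R. From the summed reads, L-DOPA + R had 20.8% and UNT 56.5%, a difference of -35.7 points, and L-DOPA differed from UNT by -0.588 points. Leaving out single rats, the difference of L-DOPA + R and UNT ran from -42.2 points (without the third L-DOPA + R rat) to -30.8 points, and that of L-DOPA and UNT from -6.47 points (without the second L-DOPA rat) to 12.8 points (without the third). The difference between L-DOPA + R and UNT was -34.0 points in the control striata alone and -40.5 points in the lesioned striata alone. The latter rests on 1 L-DOPA + R striatum with 12 reads.

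The reads behind this Adcy5 value came mostly from the minus strand. The plus strand reached 10 reads in only 2 striata, both of UNT, and had 2 to 7 reads in L-DOPA + R. Of the L-DOPA + R striata left out for depth, 1 had 5 of 5 minus-strand reads methylated and the other had 2 of 9. With every minus-strand read counted, whatever the depth, methylation was 26.9% in L-DOPA + R, 59.5% in L-DOPA and 55.9% in UNT. Over rats, these reads gave 34.7% ± 18.3 (SD, n = 3), 62.3% ± 25.8 and 57.3% ± 3.48 in the same order. The plus strand, all its reads counted, had 39.1%, 73.7% and 57.4% in the same order.

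Of the CpGs within 100 bp of the Adcy5 site, the one at -24 bp came closest to its pattern. It was read on the minus strand, with nearly the same number of reads in each striatum as the minus strand of the chosen CpG. Methylation was 44.7% to 65.0% (median 56.2%) in UNT, 30.8% to 83.3% (median 50%) with L-DOPA, and 10.5%, 27.3%, 53.8% and 16.7% in the 4 L-DOPA + R striata. The difference between L-DOPA + R and UNT was -29.2 points, with a q of 0.155, and their striata overlapped. These reads are largely those of the chosen CpG, so the value is not independent of the choice. The CpG at -91 bp was read on the plus strand, with 53.9% in UNT, 64.7% with L-DOPA and 50% in the 3 L-DOPA + R striata that reached 10 reads, which were too few for a test. The CpG at 3 bp was kept in 2 UNT striata, with 60.0% and 70.0%.

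The chosen CpG of Adcy7 was read on the plus strand alone, and all 18 striata were kept. In UNT, methylation was 38.9%, 58.3% and 47.9% on the control side and 41.9%, 56.5% and 46.2% on the lesioned side. In L-DOPA it was 57.7%, 47.1% and 29.4% on the control side and 48%, 19.4% and 25% on the lesioned side. In L-DOPA + R it was 27.8%, 21.7% and 35.0% on the control side and 30.0%, 11.8% and 29.6% on the lesioned side. All L-DOPA + R striata lay below all UNT striata, and the L-DOPA striata overlapped with both groups. Over rats, the means were 48.3% ± 8.59 (SD, n = 3), 37.8% ± 13.4 and 26.0% ± 8.18 in the same order. From the summed reads, L-DOPA + R differed from UNT by -20.3 points and from L-DOPA by -9.64 points, and L-DOPA from UNT by -10.7 points. The latter 2 differences rested on single rats: that from L-DOPA was -1.64 points without the first L-DOPA rat, -5.78 without the second L-DOPA + R rat and -14.7 without the third L-DOPA rat, and that of L-DOPA and UNT ran from -18.7 points without the first to -5.59 without the third L-DOPA rat. The difference of L-DOPA and UNT was -16.7 points in the lesioned and -4.37 points in the control striata, while that of L-DOPA + R and UNT was -21.1 and -19.4 points. That of L-DOPA + R and L-DOPA was -4.32 points in the lesioned and -15.0 in the control striata, and -6.0 points with a minimum of 20 reads.

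The nearest CpGs of Adcy7 lie at 124 and 139 bp, and both were kept in all 18 striata. At 124 bp, the means over rats were 35.2% ± 0.569 (SD, n = 3) in UNT, 32.6% ± 5.99 with L-DOPA and 30.3% ± 8.89 with L-DOPA + R. At 139 bp they were 13.2% ± 2.5, 14.4% ± 5.64 and 5.64% ± 3.01, and L-DOPA + R differed from UNT by -7.35 points with a q of 0.465. These 2 CpGs were named after their values were seen. The chosen CpG sat at the edge of a stretch of 20 CpGs over 1.82 kb, in which methylation in UNT lay between 13.2% and 100%. Near the chosen CpG it was low or intermediate, and the CpGs at 1271, 1299 and 1318 bp had 99.5%, 96.9% and 97.8%.

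**Figure D1:**
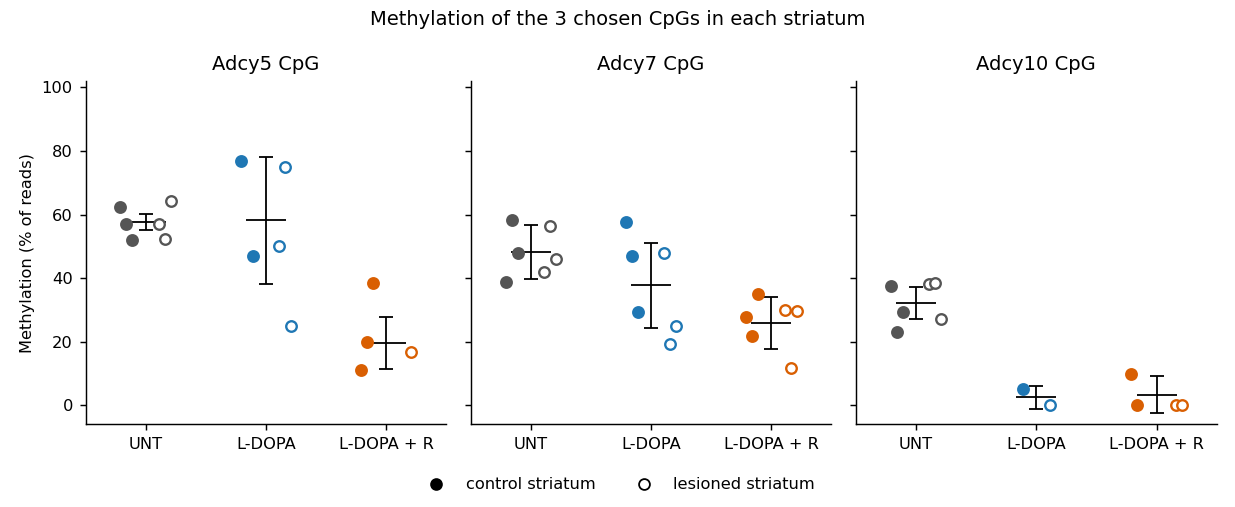
Methylation of the chosen CpGs of Adcy5, Adcy7 and Adcy10, in percent of reads, for each striatum with at least 10 reads, by treatment. Filled circles are control and open circles lesioned striata, and lines with bars show the mean ± SD over rats; at Adcy10, 2 striata of L-DOPA and 4 of L-DOPA + R were left, between 0% and 10%.

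At the chosen CpG of Adcy10, the groups did not hold reads of the same strands. With the strands added up, methylation was 37.5%, 23.0% and 29.4% in the UNT control striata and 38.0%, 38.4% and 27.1% in the lesioned ones. In L-DOPA, only 2 striata reached 10 reads, with 5% on the control side and 0% on the lesioned side. In L-DOPA + R, 4 striata did, with 10% and 0% on the control side and 0% and 0% on the lesioned side. A value of 0 of 10 to 13 reads allows up to 30.0% to 23.1% methylation in that striatum. From the summed reads, methylation was 32.7% in UNT, 3.23% with L-DOPA and 2.27% with L-DOPA + R, and L-DOPA + R differed from UNT by -30.5 points.

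The strands of this Adcy10 CpG gave opposite readings within UNT. The plus strand had 38 to 59 reads in each UNT striatum and was methylated in 0%, 0%, 1.82%, 3.39%, 4.65% and 6.78% of them. The minus strand had 21 to 45 reads in each UNT striatum and was methylated in 65.1% to 91.9% (median 77.5%). Every UNT striatum thus had a nearly unmethylated plus strand and a mostly methylated minus strand. In L-DOPA, the minus strand had 0 to 3 reads, and in L-DOPA + R 1 to 5 reads, so that only plus-strand reads were kept in these groups. On the plus strand alone, L-DOPA + R had 2.27% and UNT 2.94%, a difference of -0.668 points, and L-DOPA differed from UNT by 0.285 points. Strands that differ this far were rare in the series. Of 96060 CpGs with both strands kept in all 6 UNT striata, 2.04% differed by more than 50 points between strands, and the median difference was 1.18 points. Of the 12 such CpGs at these 3 loci, the chosen CpG of Adcy10 differed by -75.8 points (plus minus minus strand), the CpG at -48 bp by 35.5 points, and the other 10 by less than 5 points.

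The CpG at -48 bp was also split between the strands in UNT, with the minus strand lower. Its plus strand had 86.0% to 94.3% (median 90.3%) in the 6 UNT striata, and 80% to 100% in the 4 L-DOPA + R striata kept. Its minus strand had 41.0% to 65.4% (median 57.1%) in UNT, 75.6% to 94.1% (median 88.9%) with L-DOPA and 76.6% to 94.4% (median 83.8%) with L-DOPA + R. On the minus strand, no UNT striatum reached the lowest striatum of either treated group. Each strand tested on its own, the minus-strand cytosine was higher by 30.0 points in L-DOPA + R than in UNT (q = 0.000212, where 0.183% of all cytosines tested were called). It was higher by 32 points in L-DOPA than in UNT (q = 4.38e-05, where 0.134% were called). This cytosine was read in part by the same reads as the chosen CpG and is therefore not independent of the choice. The next CpG, at -76 bp and also read on the minus strand, had 91.8% in UNT, 91.9% with L-DOPA and 89.2% with L-DOPA + R, and L-DOPA + R differed from UNT with a q of 0.817.

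The numbers of reads on the minus strand moved together with these values. In each UNT striatum, the minus-strand cytosine at -48 bp had 21 to 47 reads more than that at -76 bp. The minus strand of the chosen CpG had 21 to 45 reads, and the 2 numbers differed by -1 to 2 reads in each of the 6 striata. In L-DOPA the surplus was 2 to 17 reads beside 0 to 3 reads at the chosen CpG, and in L-DOPA + R 0 to 4 beside 1 to 5. The plus strand of the chosen CpG lies 48 bases past the plus-strand cytosine at -48 bp, and the minus strand at -48 bp lies 48 bases past the minus strand of the chosen CpG. Both are near the end of a read of 50 bases that starts at the first cytosine. Of the 343 CpGs, 37 have a cytosine 46 to 50 bases past another one of the same strand. The chosen CpGs of Adcy5 and Adcy7 are not among them. The part of the read ends in the Adcy10 values was not tested.

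**Figure D2:**
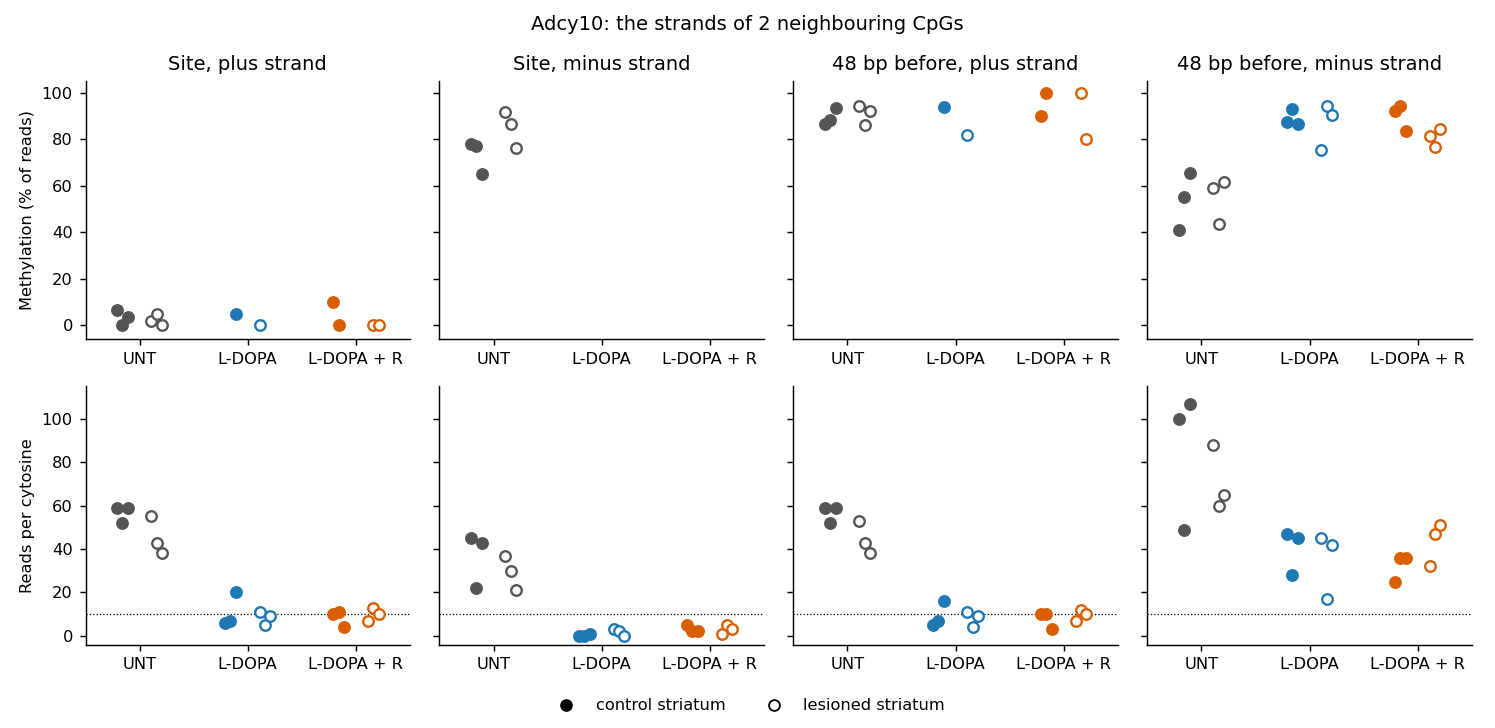
Methylation (upper panels, percent of reads, striata with at least 10 reads) and reads per cytosine (lower panels, all striata, dotted line at 10 reads) for each strand of the chosen Adcy10 CpG and of the CpG 48 bp before it, by treatment. The minus strand of the chosen CpG had 21 to 45 reads in UNT and 0 to 5 in the treated groups, and the minus strand 48 bp before had 41.0% to 65.4% in UNT and 75.6% to 94.4% in the treated groups.

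Around the chosen CpGs, the loci differed in their level of methylation. In UNT, the mean over rats was known for 98 CpGs of Adcy5, of which 30 were under 20%, 63 between 20 and 80% and 5 over 80%. At Adcy7, 99 of 195 were under 20%, 34 between and 62 over 80%. At Adcy10, 1 of 37 was under 20%, 13 between and 23 over 80%. Over the whole series, 41.7% of CpGs were under 20%, 20.9% between and 37.4% over 80%. The median was 41.4% at Adcy5, 13.5% at Adcy7 and 88.9% at Adcy10, so Adcy5 was the locus with mostly intermediate methylation.

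Many CpGs of low methylation lay in a few dense stretches. At Adcy5, 17 CpGs from 49717 to 49929 bp, next to the promoter of the gene, had a median of 0.737% in UNT. At Adcy7, 64 CpGs from -44384 to -43299 bp had a median of 0% in UNT, with 61 of them under 20%. The promoter of Brd7, a bromodomain gene next to Adcy7, was placed within this stretch at -44109 to -43810 bp. A further stretch of 51 CpGs from 43530 to 46178 bp had a median of 2.40%, with 37 of 50 under 20% and 9 over 80%. At Adcy10, 19 CpGs from 21235 to 22200 bp had a median of 86.3% in UNT.

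**Figure D3:**
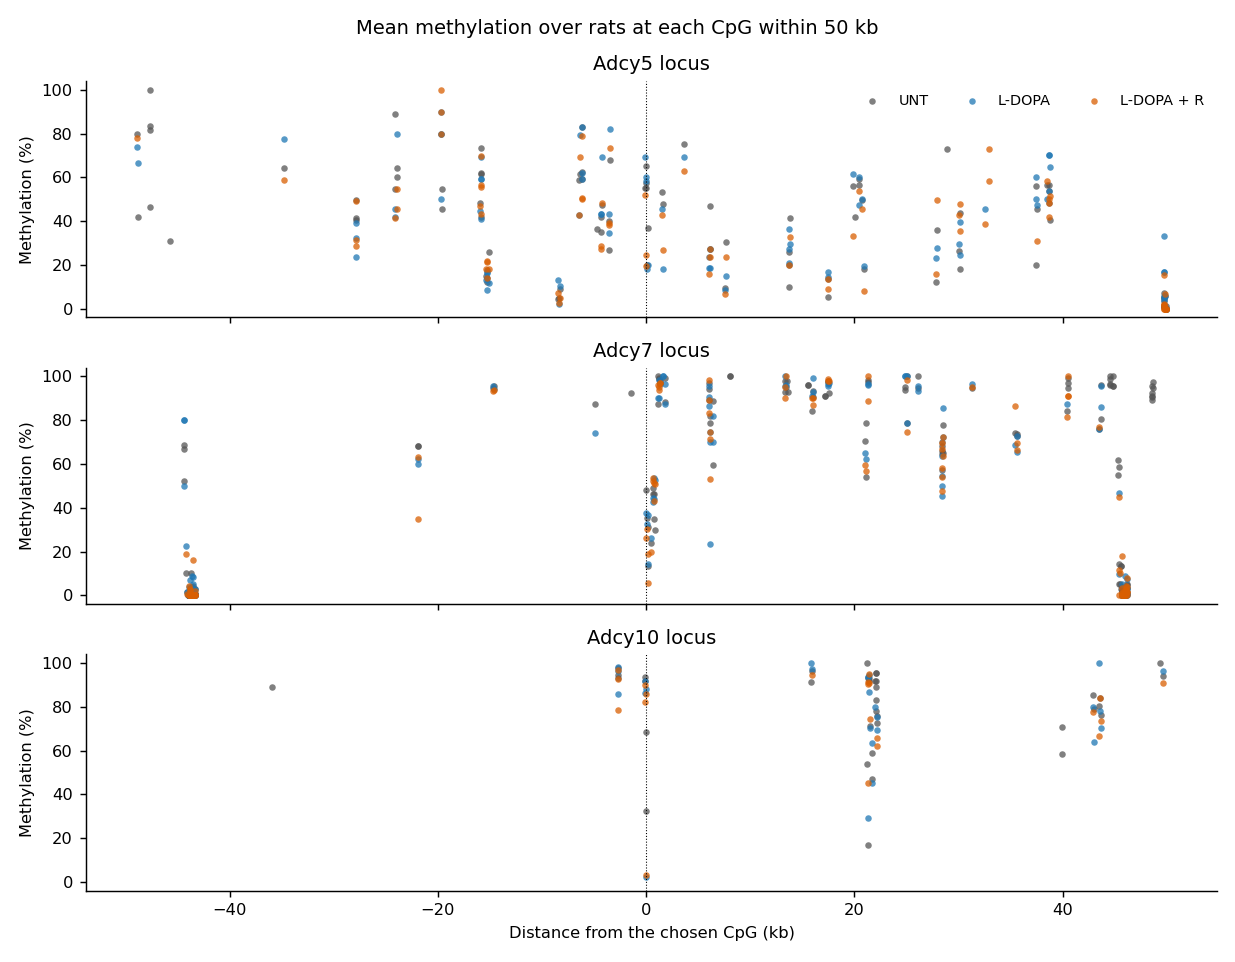
Mean methylation over rats, in percent, at each CpG with at least 10 reads, against the distance from the chosen CpG in kb (dotted line at 0), for the Adcy5, Adcy7 and Adcy10 loci and the treatments UNT, L-DOPA and L-DOPA + R. Most CpGs of Adcy10 lie above 80%, those of Adcy5 between 20 and 80%, and those of Adcy7 in dense low stretches near -44 and 46 kb, with CpGs of intermediate and high methylation near the chosen CpG.

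To ask whether the treatments changed methylation around the chosen CpGs, the neighbours were tested with the logistic model. Between L-DOPA + R and UNT, 0 of 130 neighbours were DMS, where 0.445% of all CpGs tested were DMS. Without cytosines 46 to 50 bases past another one of the same strand, 0 of 118 were DMS and the share of all CpGs tested was 0.132%. At an unadjusted p under 0.05 there were 14 of 130, 9 lower and 5 higher, where 9.52% of all CpGs tested passed. These include the CpGs at -24 bp of Adcy5 and -48 bp of Adcy10, which are not independent of the choice, and without CpGs within 100 bp of a chosen CpG there were 12 of 127, 8 lower and 4 higher. With an F test, 0 were DMS and 6 had an unadjusted p under 0.05, where 0.0578% and 5.86% of all did. Between L-DOPA and UNT, 0 of 129 were DMS, where 0.351% of all were (0.0776% without those cytosines, with 0 of 118 neighbours), and 9 had an unadjusted p under 0.05, where 7.37% did (8 of 125 farther than 100 bp). With an F test, there were 0 DMS and 5 at an unadjusted p under 0.05, where 0.0622% and 4.26% of all passed. For L-DOPA + R against L-DOPA, 0 of 114 were DMS, where 0.0477% of all were, and 11 had an unadjusted p under 0.05, where 7.09% did (10 of 111 farther than 100 bp). With an F test, there were 0 DMS and 4 at an unadjusted p under 0.05, where 0.000352% and 3.93% of all passed. The first of these comparisons shares its UNT striata with the second and its L-DOPA + R striata with the third.

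The differences of the neighbours were small on average. Between L-DOPA + R and UNT, the median difference was -0.874 points over 44 CpGs at Adcy5, -0.439 over 70 at Adcy7 and -1.32 over 16 at Adcy10. Between L-DOPA and UNT, it was -0.279, -0.476 and -0.574 points over 46, 67 and 16 CpGs in the same order. Over all CpGs tested in the series, the median was -0.265 points for L-DOPA + R against UNT and -0.00614 for L-DOPA against UNT. Single neighbours lay between -29.2 and 24.5 points for L-DOPA + R against UNT and between -15.3 and 21.5 points for L-DOPA against UNT.

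Beside the CpGs within 100 bp of a chosen CpG, described above, the neighbours with the smallest p at each locus were all above the q of 0.01. For L-DOPA + R against UNT, the CpG at -2663 bp of Adcy10 had 94.7% to 100% (median 98.0%) in UNT and 93.8%, 57.1%, 86.7% and 76.9% in the 4 striata of L-DOPA + R, which all lay below UNT. Its difference was -18.5 points with a q of 0.0268. With the L-DOPA + R striata under 10 reads counted, its values reached 100%. From the summed reads, the CpG at -2670 bp had 94.3% in UNT and 93.0% in L-DOPA + R, and that at -2682 bp 92.9% and 96.6%. At Adcy5, the CpG at -4379 bp had 32.8% to 54.1% (median 41.1%) in UNT and 14.3% to 35.5% (median 33.4%) in L-DOPA + R, with overlap. Its difference was -11.9 points with a q of 0.391. At Adcy7, the CpG at 46061 bp had 0 of 128 methylated reads in UNT, which allows up to 2.34%, and 0% to 12.5% in L-DOPA + R, with a q of 0.339. The CpG at -48 bp of Adcy10, described above with its strands apart, had a q of 0.0276 with the strands added up. It became a DMS without the third UNT rat and with the rat as the unit, and the same holds for L-DOPA against UNT without the third UNT rat.

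For L-DOPA against UNT, the CpG at 38794 bp of Adcy5 had 20% to 50% (median 44.6%) in UNT and 63.6%, 50%, 73.7%, 64.7% and 71.4% in L-DOPA. The groups met only at 50%, and the difference was 21.5 points with a q of 0.143. The same CpG had 29.4% to 73.3% (median 56.1%) in L-DOPA + R, across both groups. At Adcy7, the CpG at 6109 bp had 72.0% to 85.7% in UNT and 54.5% to 76.9% in L-DOPA, a difference of -12.2 points with a q of 0.429. At Adcy10, the CpG at 21378 bp had a difference of -7.15 points with a q of 0.790, and the CpG at -48 bp had 18.3 points with a q of 0.0294.

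L-DOPA + R and L-DOPA differ by Riluzole together with its vehicle. Between them, the smallest p was at -43657 bp of Adcy7, in the stretch that holds the Brd7 promoter. It had 0 of 76 methylated reads in L-DOPA + R, which allows up to 3.95%, and 7.14% to 11.1% in the 4 striata of L-DOPA. The groups did not overlap, with a difference of -9.33 points and a q of 0.267, and UNT spread from 0% to 12% across both. The L-DOPA values rest on only 1 to 3 methylated reads in each striatum, of 13 to 27 reads. At Adcy5, the CpG at -4360 bp had 18.8% to 33.3% in L-DOPA + R and 29.0% to 57.1% in L-DOPA, with a q of 0.476. At Adcy10, the CpG at -2682 bp had a difference of 11.1 points with a q of 0.665.

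**Figure D4:**
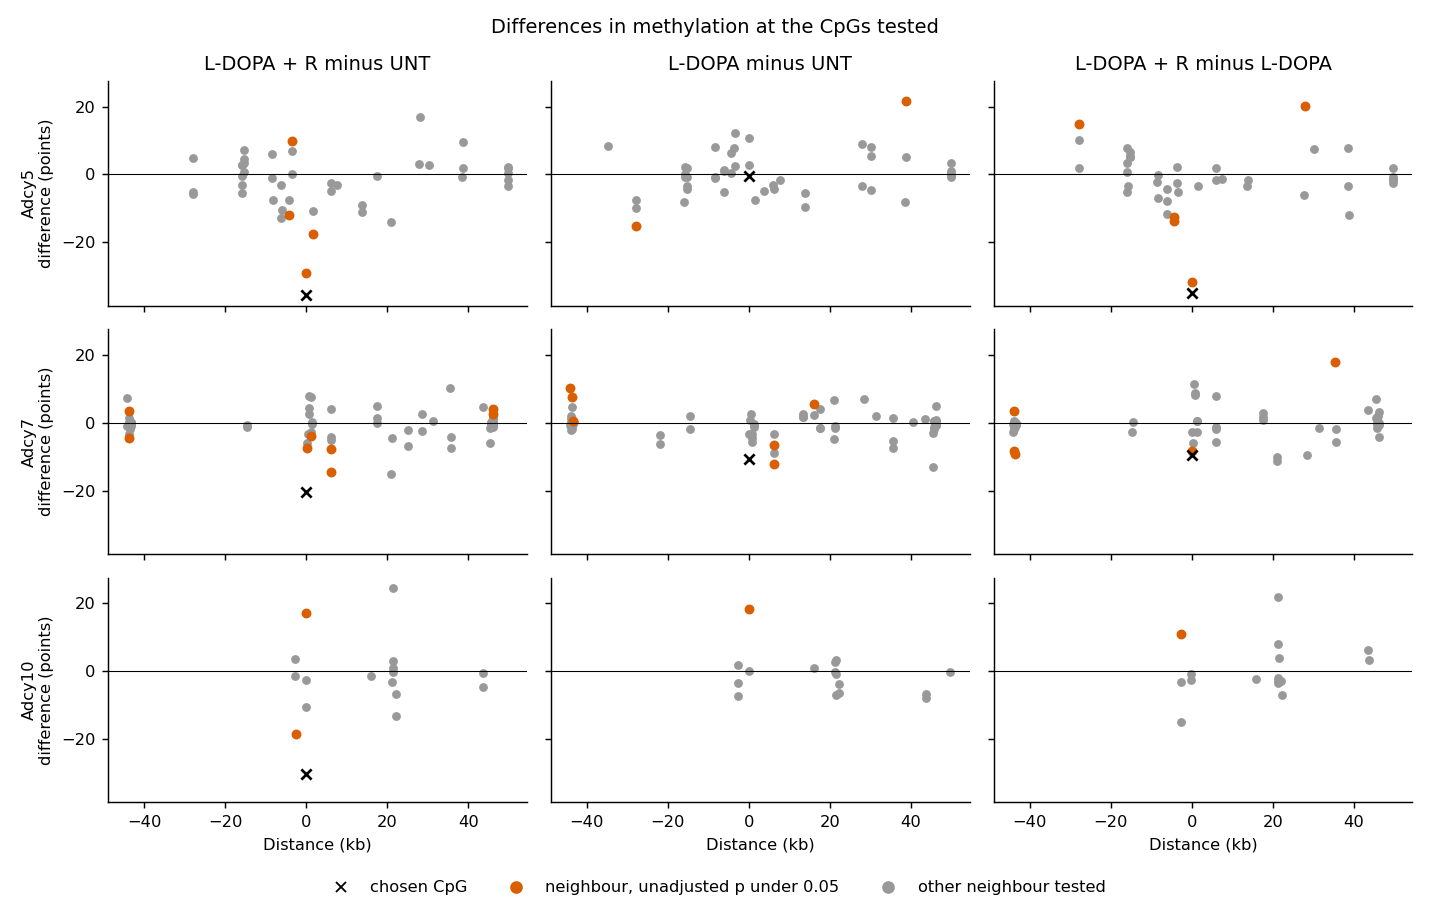
Difference in methylation, in percentage points of the summed reads, against the distance from the chosen CpG in kb, for the 3 comparisons of treatments (columns) at Adcy5, Adcy7 and Adcy10 (rows). Crosses are the chosen CpGs (none where too few striata were kept), orange points neighbours with an unadjusted p under 0.05 and grey points the others; most neighbours lie near 0 and none was a DMS.

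As a summary of each locus, methylation was averaged per rat over the neighbours present in all 18 striata and compared with a two-sided exact permutation test, in which 3 rats against 3 cannot go below p = 0.1. At Adcy5, over 26 CpGs, the means were 34.2% ± 0.621 (SD, n = 3) in UNT, 33.3% ± 2.26 with L-DOPA and 31.9% ± 3.47 with L-DOPA + R, and the rats of all groups overlapped. At Adcy7, over 34 CpGs, they were 49.1% ± 0.599, 47.9% ± 0.820 and 48% ± 1.59. The L-DOPA rats of Adcy7, at 46.9% to 48.4%, lay below the UNT rats, at 48.5% to 49.7%, with the smallest exact p possible of 0.1. This difference of -1.28 points was -0.125 points with a minimum of 20 reads (6 CpGs) and 2.5 points from the summed reads. At Adcy10, over 9 CpGs, the means were 77.3% ± 3.31, 80.2% ± 7.15 and 81.4% ± 7.0, with overlap. The 9 include the CpGs at -48 and -76 bp, of which the first is not independent of the choice. Over the 7 CpGs farther than 100 bp, the means were 76.5% ± 3.48, 77.4% ± 8.22 and 79.5% ± 8.86, also with overlap, so that the difference of L-DOPA + R from UNT was 3.01 points in place of 4.08 and that of L-DOPA 0.880 in place of 2.89. The locus means of Adcy5 and Adcy7 hold no CpG within 100 bp. All 9 exact comparisons had a Benjamini-Hochberg adjusted p of 0.9.

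**Figure D5:**
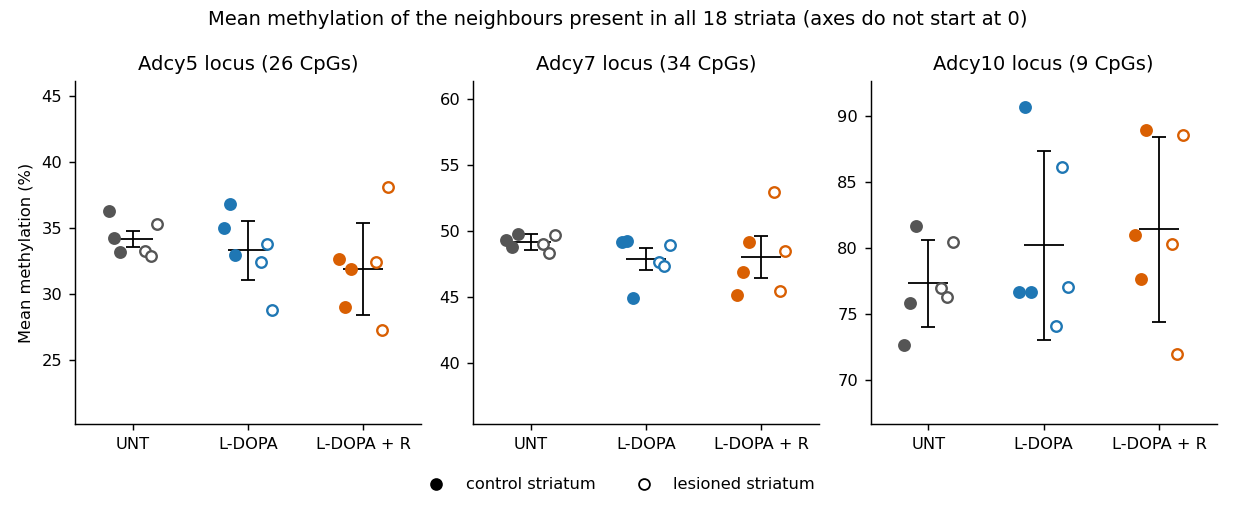
Mean methylation, in percent, of the neighbours present in all 18 striata, by treatment, for the Adcy5 (26 CpGs), Adcy7 (34) and Adcy10 (9) loci; the axes do not start at 0. Filled circles are control and open circles lesioned striata, and lines with bars give the mean ± SD over 3 rats, which differ by at most 4.08 points between treatments.

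The side of the lesion was not used to choose the CpGs, and could therefore be tested at all members. Within UNT, 0 of 128 CpGs present in all 6 striata were DMS between the lesioned and the control side (0.00193% of all CpGs tested were), and 12 had an unadjusted p under 0.05, where 6.45% of all did. Within L-DOPA, 0 of 87 were DMS (0.00101% of all) and 10 had an unadjusted p under 0.05 (5.4% of all). Within L-DOPA + R, 0 of 79 were DMS (0.00176% of all) and 4 had an unadjusted p under 0.05 (6.29% of all). With an F test, 0 were DMS and 1 had an unadjusted p under 0.05 in each of the 3 groups, where 0% were DMS and 1.11%, 0.763% and 1.04% of all CpGs tested had such a p. At the chosen CpGs in UNT, the lesioned minus the control side was 1.23 points at Adcy5, -0.483 at Adcy7 and 4.55 at Adcy10, with q values of 1, 1 and 0.977. With the strands of the Adcy10 CpG apart, the minus strand had 86.4% on the lesioned and 72.7% on the control side, a difference of 13.6 points (q = 0.739), and the plus strand a difference of -1.32 points (q = 1). At Adcy7 it was -12.9 points under L-DOPA (30% against 42.9%), with a q of 0.965, and -2.19 points under L-DOPA + R, with a q of 1.

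At Adcy5, CpGs about 6 kb before the chosen one had the smallest p between the sides in both treated groups. They had nearly the same number of reads in each striatum, so they are likely read together and are not independent of each other. Under L-DOPA, the CpG at -6144 bp had 62.5%, 86.4% and 71.4% on the control side and 42.5%, 55.6% and 36.4% on the lesioned side, with no overlap and a q of 0.514. At this CpG the sides overlapped under L-DOPA + R, with 73.7%, 37.0% and 42.9% on the control and 50%, 39.1% and 58.3% on the lesioned side, and in UNT the summed reads gave 62.3% and 63.6%. Under L-DOPA + R, the CpG at -6126 bp had 94.7%, 88.9% and 85.7% on the control side and 61.5%, 68.2% and 74.3% on the lesioned side, with no overlap and a q of 0.495. At the same CpG under L-DOPA, the sides had 87.5%, 90.9% and 92.9% against 82.5%, 66.7% and 77.3%. In UNT, they had 78.3%, 100% and 77.8% against 88.9%, 85.0% and 68.4%, with overlap.

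In UNT, the smallest p between the sides at Adcy5 was at -3437 bp, with 45.5%, 71.4% and 55.6% on the control and 80%, 81.8% and 72.2% on the lesioned side (q = 0.572). At Adcy7, and over the 3 loci, it was at -43332 bp, near the Brd7 promoter, with 4.84%, 5.13% and 4.10% against 1.82%, 0.877% and 0% (q = 0.382). At Adcy10, the CpG at 15967 bp had a difference of -5.45 points (q = 0.703). Under L-DOPA, the CpG at 21378 bp of Adcy10 had 94.7%, 100% and 90.0% on the control and 76.5%, 88.9% and 70.6% on the lesioned side (q = 0.810), and that at 17505 bp of Adcy7 a difference of -8.51 points (q = 0.765). Under L-DOPA + R, the CpG at 21378 bp of Adcy10 had a difference of -7.18 points (q = 0.762) and that at 31331 bp of Adcy7 of 8.06 points (q = 0.655).

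Whether a treatment acted differently on the lesioned side was tested with an interaction of side and treatment. No CpG of the 3 loci was called: 0 of 76 for L-DOPA + R against UNT (0% of all CpGs tested), 0 of 78 for L-DOPA against UNT (0.000268%) and 0 of 71 for L-DOPA + R against L-DOPA (0.000658%). At an unadjusted p under 0.05 there were 4, 5 and 3, where 6.44%, 6.05% and 6.12% of all CpGs tested passed, and with an F test 1, 3 and 2 (3.07%, 2.83% and 2.89% of all), with 0 called.

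Other genes of the cAMP pathway were followed at their promoters. Of a list of 39 genes, with receptors, G proteins, cyclases, phosphodiesterases, kinase subunits and targets of the pathway, 29 had a promoter sequence and 7 could be placed on rn6. These were the cyclases Adcy5 and Adcy9, the G protein subunit Gnas, the receptor Drd2, the protein kinase A subunits Prkacb and Prkar2b, and the transcription factor Creb1. Of 82 promoter CpGs tested between L-DOPA + R and UNT, 0 were DMS and 5 had an unadjusted p under 0.05 (0.445% and 9.52% of all CpGs tested). Of 53 tested between L-DOPA and UNT, 0 were DMS and 3 had an unadjusted p under 0.05 (0.351% and 7.37% of all). For L-DOPA + R against L-DOPA the counts were 0 and 2 of 53 (0.0477% and 7.09% of all). Methylation over the promoter CpGs in all 18 striata was 1.41% ± 0.246 (SD, n = 3), 1.49% ± 1.09 and 1.72% ± 0.598 at Prkacb, and 0.783% ± 0.238, 0.955% ± 0.560 and 1.12% ± 0.366 at Creb1, for UNT, L-DOPA and L-DOPA + R in this order. The means of Prkacb and Creb1 were above those of Adcy5 in each treatment, and this difference was not tested.

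At the edges of the 50 kb, the last CpG inside was at -48897 bp and the first outside at -54155 bp for Adcy5, with 79.6% and 60.4% in UNT. On the other side they were at 49929 and 50164 bp, with 0% at both. At Adcy7, CpGs at 48641 and 51081 bp had 94.8% and 81.8%. At Adcy10, CpGs at 49657 and 56114 bp had 94.2% and 94.7%, while on the other side the last CpG inside, at -35886 bp, had 88.9% and the first outside, at -75530 bp, had 4.38%.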

How the data were processed

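RRBS libraries came from both striata of 9 rats. The authors trimmed single-end reads of 50 bases with Trim Galore 0.4.0, mapped them to rn6 with Bismark and listed the CpG cytosines of each strand with methylKit. The coverage was deposited by the authors as the count of reads at each cytosine, without a minimum or normalization, and the share of methylated and unmethylated reads as a percent (C or T). The number of methylated reads was rebuilt from coverage and percent, to the nearest whole read.

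Computation was done in Python (3.11.15), with the packages scipy (1.17.1), pandas (2.3.3) and numpy (2.4.6). A cytosine needed at least 10 reads, and the strands were added up. The logistic model of methylKit was written anew, with overdispersion from Pearson residuals (not below 1), and fitted to all CpGs of the series outside the spike-in contigs. It was tested on simulated data with known changes. Groups were taken from the sample titles, and each striatum was a sample, although the striata come in pairs from one animal. The study took both striata of each rat, but the labels do not say that a replicate number marks the same rat on both sides; this was assumed. Over 294959 CpGs, the deviations from the group means of same-numbered striata had a mean r of 0.0645 (0.0336 to 0.112, 9 pairs), and 17 of 18 striata correlated best with their own number on the other side, as a hint from the data. Rats of different treatments that carry the same number are different animals. Per the study's methods, up to 6 samples went through bisulfite conversion and amplification as 1 pool. Which samples shared a pool is not given in the sources used here, so pool cannot be told apart from treatment or replicate.

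The members, the gene list and the tests were chosen with earlier results of these data known. The CpGs named were the chosen ones, those within 100 bp, any DMS, and the CpG with the smallest p at each locus in each comparison of treatments or sides. Alternatives tried were an F test, no overdispersion correction, each strand on its own, a minimum of 20 reads, removal of cytosines that lie 50 (or 46 to 50) bases after another one on their strand, a replicate block, each replicate left out, the rat as the unit, each side alone and CpGs present in all 12 striata. The placing of promoters, the read counts of the Adcy10 strands and the removal of CpGs within 100 bp of a chosen CpG were added after seeing the data. Promoter sequences were taken from RefSeq (GRCr8). Exons, introns and CpG islands of the neighbours were not analysed here.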

Additional observations from a re-analysis of the deposited data

Results flagged for a closer look

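At the chosen CpG of Adcy10, 1 of the 4 L-DOPA + R striata kept had a methylation of 10% and the other 3 had 0%. The gap to the nearest of the others was the whole range of the group. The value rests on 1 methylated read of 10. It was the only one of 17 groups of striata checked (the 3 chosen CpGs and the means of their neighbours, by treatment) in which the highest or the lowest striatum stood apart this far. With the other 3 striata at 0%, any methylated read gives such a gap. The check therefore cannot tell an outlier from counting error here.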

How the results depend on the processing

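The counts of DMS among the neighbours, 0 in each comparison of treatments, changed under a few settings, and the cause was not tested. For L-DOPA + R against UNT, there was 1 DMS with each strand on its own (0.183% of all tested), 3 without the overdispersion correction (1.22%) and 1 with the rat as the unit (0.481%). Each of these settings called the CpG at -48 bp of Adcy10, which is not independent of the choice. Without the correction, those at -2663 and 21305 bp of Adcy10 were also called. For L-DOPA against UNT, there was 1 with each strand on its own (0.134%) and 1 without the overdispersion correction (0.744%). Each was the CpG at -48 bp of Adcy10. With the replicate number as a block, there was 1 DMS in each of these comparisons, where 0.511% and 0.42% of all were. It was the CpG at 21305 bp of Adcy10 for L-DOPA + R against UNT and that at -48 bp for L-DOPA against UNT. The same number pairs no rats between treatments. The deviations of same-numbered rats of different treatments had a mean r of 0.00154 (-0.0584 to 0.0365, 18 pairs of striata). Leaving out each replicate gave 0 to 1 DMS in both comparisons, the 1 being the CpG at -48 bp of Adcy10 without the third UNT rat (0.443% and 0.382% of all). No DMS was found between L-DOPA + R and L-DOPA, between the sides or for the interaction under the alternatives run. The block was among these for the first of them and for the sides. Of the locus means, the Adcy7 difference of L-DOPA and UNT was -0.125 points with a minimum of 20 reads (6 CpGs) and 2.5 points from summed reads, in place of -1.28. That of L-DOPA + R and L-DOPA was -3.88 points from summed reads, in place of 0.154. At Adcy10, L-DOPA + R against UNT was -1.69 points with a minimum of 20 reads (3 CpGs), in place of 4.08. At this locus, leaving out 1 rat moved L-DOPA + R against UNT to between 0.407 (without the third L-DOPA + R rat) and 7.38 points (without the second), and L-DOPA against UNT to between -1.22 (without the second L-DOPA rat) and 5.3 points (without the first), in place of 2.89. L-DOPA + R against L-DOPA, 1.19 points, ran from -2.48 (without the third L-DOPA + R rat) to 5.3 points (without the second L-DOPA rat). At Adcy5, the 3 differences ran from -3.83 to -0.397, from -1.88 to 0.351 and from -2.96 to 0.469 points, with the sign turned for L-DOPA against UNT without the third L-DOPA rat and for L-DOPA + R against L-DOPA without the second L-DOPA + R rat. At Adcy7 they ran from -1.64 to -0.214, from -1.59 to -0.812 and from -0.357 to 1.07 points. Thus only the signs of L-DOPA + R against UNT at each locus, and of L-DOPA against UNT at Adcy7, stayed when 1 rat was left out. The other 80 values of the locus means, those without a rat included, moved by less than the spread between rats. At the chosen CpG of Adcy10, the differences from UNT depended on the strands added up. No value was left at the chosen CpG of Adcy5 with a minimum of 20 reads or on the plus strand alone, at that of Adcy7 on the minus strand, and at that of Adcy10 on the minus strand, without cytosines near read ends and, for L-DOPA + R, with a minimum of 20 reads. Depth was lower in L-DOPA and L-DOPA + R than in most UNT striata, which limits what single striata can show.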

Other observations

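Of the genes near Adcy7 and Adcy10, the promoters of Tent4b and Dcaf6 had CpGs kept in all 18 striata, and both were low in methylation. For Tent4b, a poly(A) polymerase gene 118114 bp from the chosen CpG of Adcy7, the mean over 7 promoter CpGs was 1.24% ± 0.208 (SD, n = 3) in UNT, 1.13% ± 0.272 with L-DOPA and 1.24% ± 0.235 with L-DOPA + R, and 0 of 22 CpGs were DMS between L-DOPA + R and UNT, with 0 at an unadjusted p under 0.05. For Dcaf6, at -76625 bp from the chosen CpG of Adcy10, the mean over 11 promoter CpGs was 0.947% ± 0.242, 1.15% ± 0.479 and 0.289% ± 0.349, and 0 of 14 CpGs were DMS, with 2 at an unadjusted p under 0.05. At the Brd7 and Mpzl1 promoters, for which no mean was taken, 0 of 5 and 0 of 7 CpGs were DMS, each with 1 at an unadjusted p under 0.05. Over the whole series, 0.445% of CpGs were DMS in this comparison and 9.52% had an unadjusted p under 0.05.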
